A study of Mus musculus with 12 samples.

Results

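The genes *Ly6d*, *Sprr1a*, *Elf3*, *Inava*, *Spp1*, *Prom1*, *Spats2l* and *Mybl1* were followed through 12 mouse livers in which bulk RNA sequencing had been done. They are 8 of the 25676 genes of the deposited table and were chosen by name because their levels were far higher in livers without *Yap1* than in control livers. That contrast therefore chose them, and their differences between the genotypes are given as a description with no test. The 12 animals were on the C57BL/6 background. The KO group carried the genotype Foxa3-Cre YAP1 KO (3 males and 3 females), and the WT group was labelled WT (3 males and 3 females). The sources used here do not give the ages of the mice or say whether WT animals carried Cre or floxed alleles. Each animal gave 1 library from flash-frozen liver, and replicate numbers follow the order of deposition.

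YAP1 is a transcriptional co-activator of the Hippo pathway that binds DNA through the TEAD factors, and in the developing liver it is required for bile ducts to form. *Foxa3* is switched on in the embryonic foregut endoderm, from which hepatocytes and bile duct cells both arise, so Cre driven by it acts on both lineages and not on blood, endothelial or stellate cells. When liver or other epithelia are injured, surviving cells are known to switch on genes of ducts, of epithelial barriers and of repair that the resting tissue keeps low, and several of the 8 genes belong to such programmes.

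Values are TPM, a share of each library's transcripts scaled to a fixed sum, which divide by transcript length and by library, so levels can be compared between genes. *Yap1* (ENSMUSG00000053110, chromosome 9, 7931999 to 8004596, minus strand, GRCm38) was 29.5 ± 4.46 TPM in WT (SD, n = 6) and 2.02 ± 0.775 TPM in KO (SD, n = 6), with no overlap between genotypes. Among KO livers the males ranged from 0.994 to 1.80 TPM and the females from 2.41 to 3.11 TPM. The tissue label holds: 7 hepatocyte markers, albumin among them, summed to 79019 to 105758 TPM in WT and 61244 to 87724 TPM in KO. Read depth is not recoverable from TPM. Between 14321 and 15482 genes were above 0 in a library, and libraries of 1 group correlated at r between 0.983 and 0.995 over genes. Differences are given as KO minus WT in log2(TPM + 1), where the added 1 shrinks the difference of a gene that is near 0. Of 12278 genes with a mean of at least 0.5 TPM, 54.9% differed between genotypes at an adjusted p under 0.05 (limma with sex as covariate, Benjamini-Hochberg), 50.1% higher in KO and 4.82% lower. The median difference over these genes was 0.35, and after rescaling each library by the median of its ratios to the other libraries it was -0.04, with 20.9% higher and 18.7% lower.

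All 8 genes had every KO value above every WT value, as did 28.7% of the tested genes. All 8 passed the filter on mean TPM, but *Sprr1a*, *Inava* and *Mybl1* had a WT mean below it and passed only through the KO livers. The rule names genes and sets no size of rise: 380 other tested genes rose by at least as much as *Spats2l*, the smallest of the 8 at 1.85. The plot of levels by animal shows the 8 genes in the 4 groups.

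**Figure D1:**
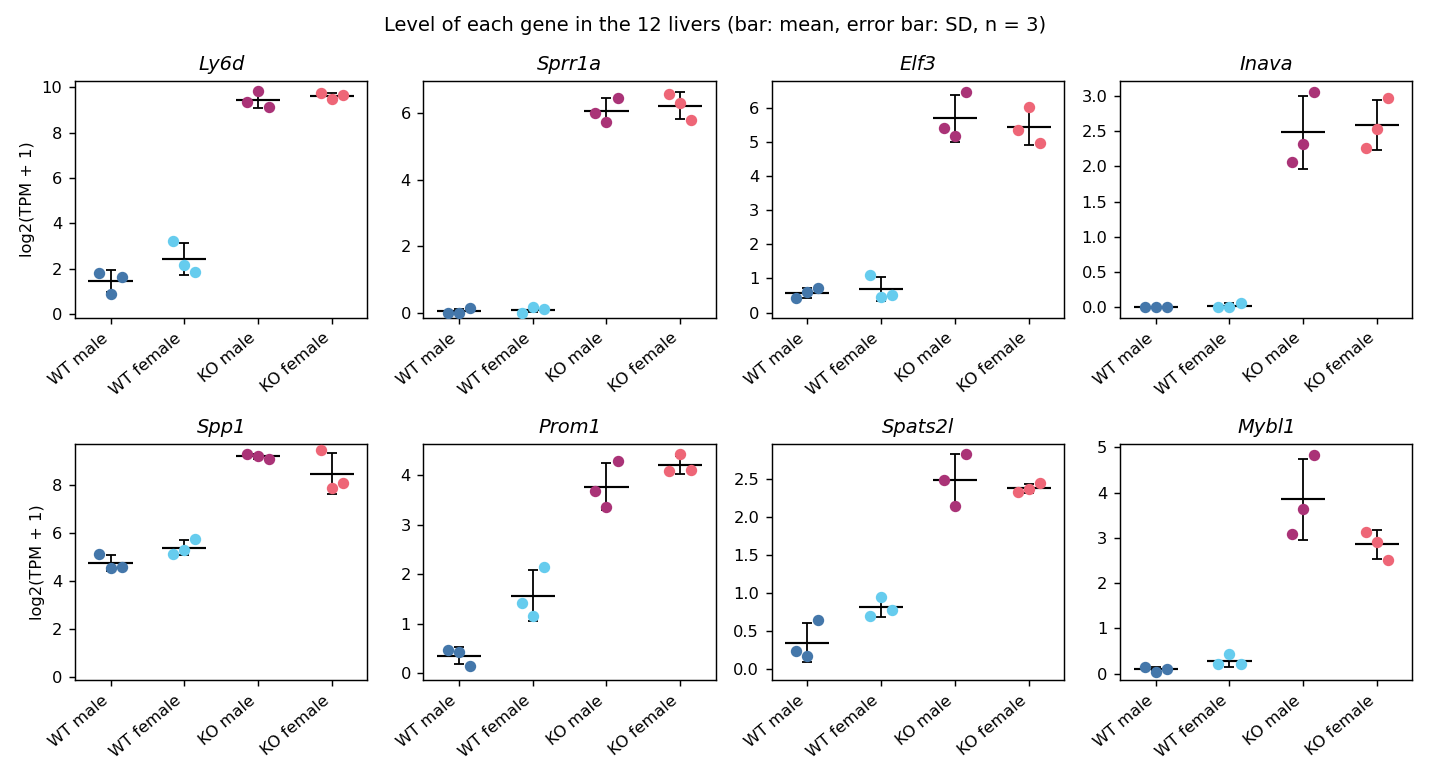
Level of each of the 8 genes as log2(TPM + 1) (vertical axis) in WT males, WT females, KO males and KO females (horizontal axis). Each point is 1 liver, the bar is the mean of 3 livers and the error bar the SD. In every panel the 6 KO points lie above the 6 WT points, and *Ly6d* KO levels lie between 559 and 905 TPM.

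*Ly6d* encodes a small GPI-anchored surface protein of the Ly6 family, known from squamous epithelium and from early B-lineage cells. The gene (ENSMUSG00000034634) lies on chromosome 15 from 74762056 to 74763620, minus strand (GRCm38). In the WT males it was 2.57, 0.876 and 2.16 TPM, and in the WT females 8.47, 3.55 and 2.67 TPM. In the KO males it was 658, 905 and 559 TPM, and in the KO females 849, 703 and 794 TPM. It was the most abundant of the 8 in KO liver, at 745 ± 129 TPM against 3.38 ± 2.64 TPM in WT (SD, n = 6 each). The difference of 7.57 ± 0.249 (SE) was the largest rise among the 12278 tested genes on this scale. With a pseudocount of 0.1 *Sprr1a* rose more (8.95 against 8.02), and the authors' deposited table gave log2 fold changes of 7.78 for *Ly6d*, 9.87 for *Sprr1a* and 7.98 for *Inava*. The KO livers of *Ly6d* differed by 1.62-fold from lowest to highest, the narrowest range of the 8.

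Markers of other cell types known for *Ly6d* were low. Of 10 squamous or urothelial markers only *Upk1b* reached the filter and none passed the test, and the summed level of the 10 was 0.620 to 1.46 TPM in WT and 0.673 to 2.81 TPM in KO. *Krt5*, *Krt14* and *Trp63* were each at most 1.31 TPM in any KO liver. The 6 B cell markers summed to 1.24 to 5.88 TPM in WT and to 1.70 to 4.11 TPM in KO, with *Igll1* at 0 in all libraries. Of the 6, only *Cd79a* and *Cd79b* were tested. *Cd79b* was higher (difference 0.51, limma adjusted p = 0.0177, and 0.27 after rescaling), at 1.05 to 2.36 TPM in KO. *Cd79a* did not pass (difference -0.07, limma adjusted p = 0.771). That is 1 of 2, beside 50.1% higher among all tested genes.

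*Prom1* encodes prominin-1 (CD133), a membrane protein of plasma membrane protrusions used as a marker of ductal progenitor cells. The gene (ENSMUSG00000029086) lies on chromosome 5 from 43993620 to 44102032, minus strand. WT males had 0.373, 0.350 and 0.110 TPM and WT females 1.68, 1.21 and 3.40 TPM, so the sexes did not overlap. KO males had 11.8, 9.26 and 18.5 TPM and KO females 15.9, 20.5 and 16.4 TPM, and here the sexes overlapped. The genotypes differed by 3.03 ± 0.214 (SE), from 1.19 ± 1.24 to 15.4 ± 4.18 TPM (SD, n = 6 each).

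*Spp1* encodes osteopontin, a secreted phosphoprotein that binds integrins and CD44 and is made by bile duct cells, macrophages and other cells. The gene (ENSMUSG00000029304) lies on chromosome 5 from 104435118 to 104441050, plus strand. It was the only one of the 8 with a substantial level in every WT liver, at 33.5, 21.9 and 23.1 TPM in males and 34.0, 38.0 and 52.5 TPM in females. KO males were close together at 622, 591 and 536 TPM. KO females were spread, with 702 TPM in one and 232 and 269 TPM in the other 2, so the highest and the 2 lowest KO livers were all female. The genotype difference was 3.76 ± 0.297 (SE).

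Markers of some cell types other than hepatocytes moved as well. The summed level of 8 macrophage markers was 63.7 to 210 TPM in WT and 300 to 620 TPM in KO. *Gpnmb* had a WT mean under the filter of 0.5 TPM, so that its rise was nearly fixed, and the other 7 were higher. Among the cholangiocyte markers, *Sox9* and *Tspan8* were higher, *Epcam* was lower, and *Krt7* and *Cftr* stayed at or under 0.628 TPM in every KO liver. *Krt19*, a defining bile duct keratin, was 0.738 to 2.26 TPM in WT and 0.0552 to 2.17 TPM in KO (difference -0.12, limma adjusted p = 0.707). Of 7 stellate or fibroblast markers 5 were higher (summed level 60.4 to 169 TPM in WT, 151 to 375 TPM in KO; 50.1% of all tested genes were higher), and of 4 tested neutrophil markers among 6, 3 (0.294 to 21.2 and 12.4 to 46.1 TPM). Of 6 endothelial markers 1 was higher and 1 lower, and of 3 tested T or NK cell markers 0 passed. Of 5 mesothelial markers 3 were higher, of which *Wt1* and *Lrrn4* had a WT mean under the filter. Of 2 tested gastric or intestinal markers 1 was higher. Rescaling lowered the differences of the higher markers. They then ran from 0.18 (*Des*) to 3.61 (*Col1a1*) among the 5 higher stellate or fibroblast markers. For the macrophage markers they ran from 0.32 (*Timd4*) to 3.02 (*Trem2*). In whole liver, more cells of a type and more RNA per cell cannot be told apart. Over the 6 KO livers, the summed macrophage markers had r = 0.42 with *Spp1* (exact permutation p = 0.410, rho = 0.49, exact permutation p = 0.356) and r = 0.48 with *Prom1* (exact permutation p = 0.324, rho = 0.26, exact permutation p = 0.658). Without the 2 livers farthest from the macrophage median r was -0.26 and 0.57. The summed cholangiocyte markers had r = -0.013 with *Spp1* (exact permutation p = 0.978, rho = 0.029, exact permutation p = 1) and r = 0.13 with *Prom1* (exact permutation p = 0.799, rho = 0.14, exact permutation p = 0.803), and -0.86 and 0.70 without the 2 livers farthest from that median. Of all 96 relations of the 8 genes with 12 marker sums, 6 had an exact permutation p under 0.05 before adjustment and 0 after it, with a smallest adjusted p of 0.300, so 6 livers do not settle these relations.

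*Sprr1a* encodes a small proline-rich protein that transglutaminases cross-link into the cornified envelope of squamous epithelia. The gene (ENSMUSG00000050359) lies on chromosome 3 from 92483952 to 92485895, minus strand. It was listed at 0 in 3 WT livers and at 0.0950, 0.117 and 0.0881 TPM in the other 3. KO males had 63.5, 51.8 and 87.3 TPM and KO females 95.1, 77.9 and 54.4 TPM, a range of 1.84-fold. The difference of 6.08 ± 0.150 (SE) ranked 3 among rises.

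*Inava* encodes the innate immunity activator, which stabilises junctions between epithelial cells and binds cytohesins. The gene (ENSMUSG00000041605) lies on chromosome 1 from 136213531 to 136234264, minus strand. It was listed at 0 in 5 WT livers and at 0.0443 TPM in WT female 3. KO males had 3.19, 4.01 and 7.34 TPM and KO females 3.80, 4.76 and 6.87 TPM. The level is low in absolute terms, yet every KO liver had it. The authors' deposited table gave a log2 fold change of 7.98, against 2.53 ± 0.165 (SE) on the log2(TPM + 1) scale.

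*Elf3* encodes an epithelium-specific ETS transcription factor. The gene (ENSMUSG00000003051) lies on chromosome 1 from 135253575 to 135258568, minus strand, 955 kb from *Inava*. WT males had 0.348, 0.506 and 0.658 TPM and WT females 1.16, 0.360 and 0.441 TPM. KO males had 41.6, 35.2 and 88.0 TPM and KO females 39.4, 64.4 and 30.0 TPM, so KO livers of either sex covered a similar range. The genotype difference was 4.93 ± 0.236 (SE). Of the 10 tested genes between *Elf3* and *Inava*, 6 were higher in KO and 0 lower, beside 50.1% higher among all tested genes.

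*Mybl1* encodes A-MYB, a MYB family transcription factor best known from male germ cells. The gene (ENSMUSG00000025912) lies on chromosome 1 from 9667415 to 9700209, minus strand. WT males had 0.109, 0.0325 and 0.0763 TPM and WT females 0.155, 0.357 and 0.156 TPM. KO males had 7.47, 11.5 and 27.7 TPM and KO females 7.78, 6.54 and 4.73 TPM, the widest KO range of the 8 at 5.85-fold. KO male 3 stood apart from the other 5. The genotype difference was 3.16 ± 0.283 (SE). All 6 markers of proliferating cells were also higher in KO (summed level 2.07 to 6.91 TPM in WT and 17.2 to 38.2 TPM in KO; 50.1% of all tested genes were higher, and *Mki67*, *Ccnb1* and *Cdk1* had a WT mean under the filter), and their summed level over the 6 KO livers had r = -0.43 with *Mybl1* (exact permutation p = 0.392, rho = -0.20, exact permutation p = 0.714; adjusted p over the 96 relations of 0.828 and 0.926), and r = -0.69 without the 2 livers farthest from the median of that sum.

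*Spats2l* encodes a cytoplasmic protein found in stress granules. The gene (ENSMUSG00000038305) lies on chromosome 1 from 57774162 to 57948394, plus strand. WT males had 0.177, 0.123 and 0.560 TPM and WT females 0.626, 0.934 and 0.719 TPM, so no WT male reached a WT female. KO males had 4.60, 3.39 and 6.05 TPM and KO females 3.99, 4.15 and 4.41 TPM. It was the least abundant of the 8 in KO, with a genotype difference of 1.85 ± 0.154 (SE). Genes annotated over *Elf3*, *Inava*, *Prom1* and *Spats2l* on either strand were not in the table, and use of strand is not given in the sources used here, so reads from them cannot be told apart from reads of these genes.

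By mean level in KO the order was *Ly6d*, *Spp1*, *Sprr1a*, *Elf3*, *Prom1*, *Mybl1*, *Inava* and *Spats2l*. *Ly6d* exceeded *Spp1* in 6 of 6 KO livers, although their ranges over livers overlapped. The ranges of *Spp1* and *Sprr1a*, and of *Elf3* and *Prom1*, did not overlap. *Prom1* exceeded *Mybl1* in 4 of 6 livers and *Inava* exceeded *Spats2l* in 4 of 6, so these neighbours were not separated.

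Upstream sequence was available from RefSeq (build GRCm38.p6) for 6 of the 8 genes, in 8 windows of 250 bases before a start site. *Ly6d* and *Mybl1* had no entry. The 4 printed here are those that begin upstream of the GENCODE gene, cut where that gene begins, which leaves 154 bases for *Elf3* and 236 for *Sprr1a*, shown for the matches described next. They are written 5′ to 3′ on the gene's strand, and capitals mark matches to 4 of 14 short motifs searched on both strands. The 4 were picked for capitals after their matches had been seen.
*Elf3*, chr1:135258569-135258722, minus strand: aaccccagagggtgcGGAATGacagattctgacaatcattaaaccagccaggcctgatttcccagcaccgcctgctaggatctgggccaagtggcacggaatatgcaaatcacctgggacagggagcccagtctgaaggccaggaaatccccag
*Inava*, chr1:136234281-136234530, minus strand: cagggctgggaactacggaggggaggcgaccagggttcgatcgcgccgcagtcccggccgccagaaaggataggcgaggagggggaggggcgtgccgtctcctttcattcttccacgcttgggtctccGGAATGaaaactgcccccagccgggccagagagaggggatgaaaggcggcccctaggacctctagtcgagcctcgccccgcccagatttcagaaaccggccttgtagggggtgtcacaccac
*Sprr1a*, chr3:92485896-92486131, minus strand: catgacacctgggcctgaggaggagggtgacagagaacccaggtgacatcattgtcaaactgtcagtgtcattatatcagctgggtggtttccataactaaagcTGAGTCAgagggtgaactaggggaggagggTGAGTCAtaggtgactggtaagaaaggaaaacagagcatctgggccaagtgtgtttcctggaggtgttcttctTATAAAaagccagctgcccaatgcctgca
*Spp1*, chr5:104434861-104435110, plus strand: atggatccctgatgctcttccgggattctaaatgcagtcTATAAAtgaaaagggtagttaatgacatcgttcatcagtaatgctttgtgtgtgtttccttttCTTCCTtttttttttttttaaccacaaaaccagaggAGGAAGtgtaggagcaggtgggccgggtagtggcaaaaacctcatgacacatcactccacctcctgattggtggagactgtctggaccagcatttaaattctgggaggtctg

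The TEAD motif GGAATG was in 2 of the 8 windows, those of *Elf3* and *Inava*, and in 12.6% of all 32851 RefSeq windows of this length. The AP-1 motif TGANTCA, which is its own reverse complement, was in 3 windows, at 2 places in that of *Sprr1a* and at 1 place in each of 2 windows of *Prom1*, and in 6.75% of all windows. The ETS motif AGGAAG was in 3 windows (*Prom1* and both windows of *Spp1*) and in 29.5% of all. The TATA motif TATAAA was in 2 (*Spp1* and *Sprr1a*) and in 12.4% of all, and in *Sprr1a* it lay 43 to 38 bases before the RefSeq start, from which all positions are counted. Among the other motifs, CACACCC was in 1 window of *Spats2l* and in 6.93% of all windows, and the antioxidant response motif TGACNNNGC in 2 (*Prom1* and *Sprr1a*) and in 10.2% of all. In *Sprr1a* that match, 148 to 140 bases before the start, spans 1 of the AP-1 matches. No window matched NF-kB (a strict and a looser form), C/EBP (TTGCGCAA), HNF4 (CAAAGT), STAT3 (TTCNNNGAA), GRHL (AACCGGTT) or the site of the GATA factors, AGATAA. These are in 0.356% (strict NF-kB), 17.6% (looser NF-kB), 0.164%, 12.6%, 7.02%, 0.116% and 9.99% of all windows, in that order, so that a lack of matches in 8 windows says little. A match is a run of letters and not a bound site.

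The next question was how far the 8 genes moved together from animal to animal. Within the 6 KO livers, whose spread played no part in choosing the genes, the 28 pairs had a median Pearson r of 0.27, with 18 above 0 and 10 below. Pairs of one of the 8 with another tested gene had a median r of 0.17, and 60.6% of them were above 0. After adjustment over the 28, 0 pairs had an exact permutation p under 0.05 (two-sided, all 720 pairings), and 1 pair did before it, beside 8.09% of the pairs with other genes. With the mean of each sex removed, a step added after the data had been seen, the median r in KO was 0.43, with 18 of 28 pairs again above 0, and that of pairs with other genes was 0.24. After rescaling, the median r in KO was 0.09, with 16 of 28 pairs above 0, and that of pairs with other genes was -0.020.

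That pair was *Ly6d* with *Spats2l*, and it was inverse, with r = -0.92 (exact permutation p = 0.00694, adjusted p = 0.194) and Spearman's rho = -0.94 (exact permutation p = 0.0167, adjusted p = 0.467). Without the 2 livers farthest from the *Ly6d* median r was -0.66. *Ly6d* was also inverse to *Elf3* (r = -0.81, exact permutation p = 0.0514, adjusted p = 0.595). The largest positive r with both sexes pooled was that of *Elf3* with *Mybl1* at 0.70 (exact permutation p = 0.114, adjusted p = 0.595), and it was 0.47 without the 2 livers farthest from the *Elf3* median. With the mean of each sex removed, *Elf3* with *Prom1* (0.92) and *Prom1* with *Spats2l* (0.89) were the largest, and *Ly6d* was inverse to *Prom1* (-0.94), to *Spats2l* (-0.92) and to *Elf3* (-0.80); these were not tested. With both sexes pooled no pair passed the adjusted test in either direction.

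The livers that were high differed by gene. KO male 3 was the highest of the 6 for *Elf3*, *Inava*, *Spats2l* and *Mybl1* and the lowest for *Ly6d*. KO male 2 was the highest for *Ly6d* and the lowest for *Sprr1a*, *Prom1* and *Spats2l*. KO female 1 was the highest for *Sprr1a* and *Spp1*, and KO female 2 the highest for *Prom1* and the lowest for *Spp1*. The map of deviations from the KO mean shows these high and low livers.

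**Figure D2:**
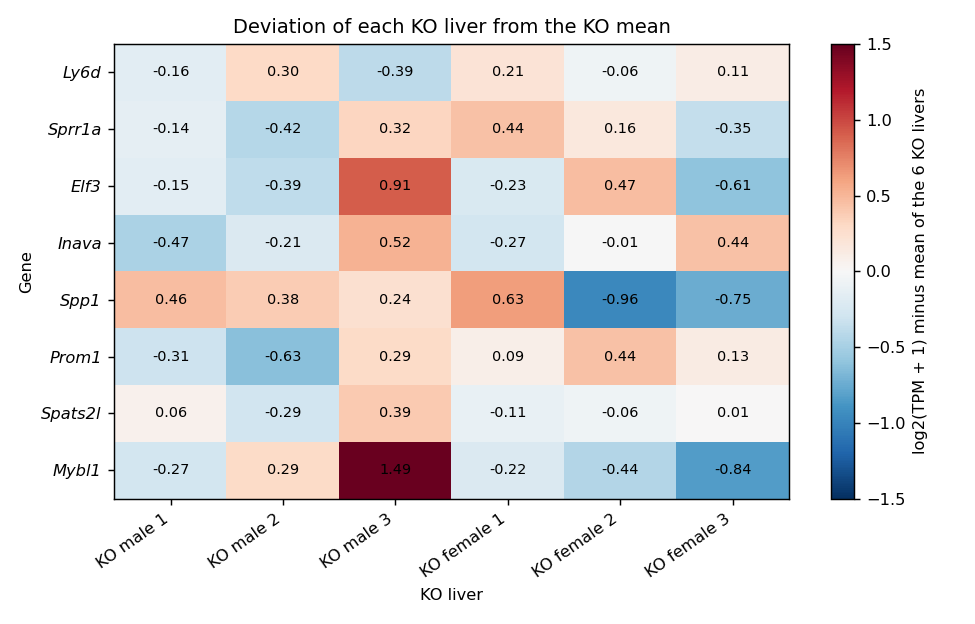
Deviation of each KO liver (columns) from the mean of the 6 KO livers for each of the 8 genes (lines of the map), in log2(TPM + 1). Red is above and blue below the mean; KO male 3 is the reddest cell for *Mybl1*, at 27.7 TPM, and blue for *Ly6d*, at 559 TPM.

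Within the 6 WT livers the median r over the 28 pairs was 0.46, with 22 above 0. *Sprr1a*, *Inava* and *Mybl1* lie below 0.5 TPM there, *Inava* at 0 in 5 livers and *Sprr1a* at 0 in 3, so an r with one of them can rest on 1 liver. Over the 10 pairs of the other 5 genes the median r was 0.53, with 9 above 0. With the mean of each sex removed, the median over the 28 pairs was -0.12, with 11 above 0 (other genes 0.071), so the positive median in WT does not hold within the sexes. Pairs with other tested genes had a median r of 0.29, and 67.7% were above 0. Again 0 pairs passed after adjustment. Before it, 2 pairs had an exact permutation p under 0.05, beside 9.34% of the pairs with other genes. *Spp1* with *Prom1* had r = 0.89 (exact permutation p = 0.0222, adjusted p = 0.603) and rho = 0.89 (exact permutation p = 0.0333, adjusted p = 0.233), and r was 0.76 without the 2 livers farthest from the *Spp1* median. The other was *Spats2l* with *Mybl1*, and its r is not given because *Mybl1* was 0.0325 to 0.357 TPM in WT. In KO *Spp1* with *Prom1* had r = -0.57. The difference between genotypes in r was not tested. WT males and females stand apart in *Prom1*, and each sex has only 3 livers, so no r is given within a sex.

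**Figure D3:**
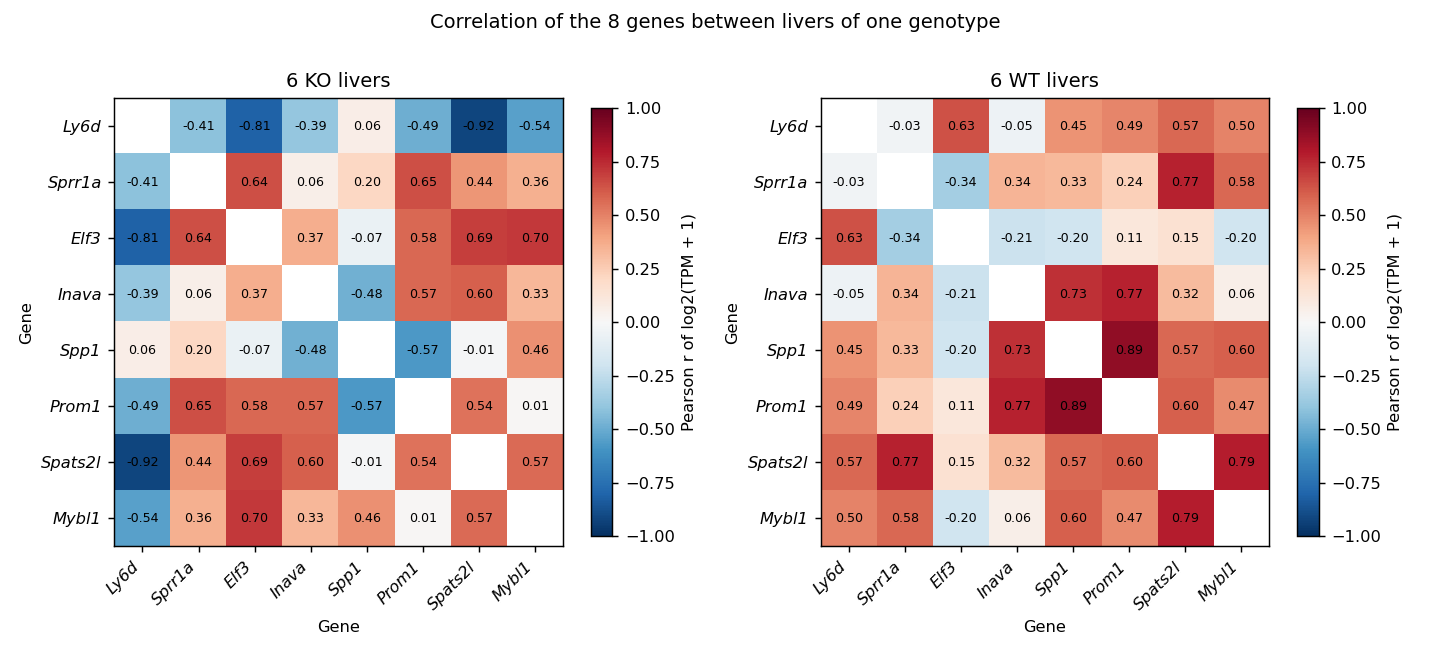
Pearson r of log2(TPM + 1) for each pair of the 8 genes over the 6 KO livers (left) and the 6 WT livers (right), with red for positive and blue for negative values. The *Ly6d* line is mostly blue in KO, down to -0.92 with *Spats2l*, while *Spp1* with *Prom1* is 0.89 in WT.

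Residual *Yap1* differed between KO livers, and the 8 genes were set against it. Over the 6 KO livers r ran from -0.36 for *Mybl1* to 0.78 for *Prom1*, and 0 of 8 had an exact permutation p under 0.05 even before adjustment, beside 5.54% of the other tested genes. *Prom1* had the smallest (exact permutation p = 0.0708, adjusted p = 0.567; rho = 0.60, exact permutation p = 0.242, adjusted p = 0.967). Its r was 0.78 without the 2 livers farthest from the *Yap1* median. Because KO males and KO females do not overlap in *Yap1*, a relation with *Yap1* and a difference between the sexes cannot be told apart here.

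Sex was compared within each genotype in 1 limma model of the 4 groups. In WT, *Prom1* was lower in males than in females, at 0.277 ± 0.146 against 2.10 ± 1.15 TPM (SD, n = 3 each), a difference of -1.22 ± 0.271 (SE, limma adjusted p = 0.0211). It was 1 of the 8 to pass, beside 5.74% of all tested genes. Before adjustment 3 of the 8, *Prom1*, *Ly6d* and *Spats2l*, had a limma p under 0.05, beside 25.6% of all. *Sprr1a*, *Inava* and *Mybl1* had a WT mean under 0.5 TPM and could hardly pass in WT, so these counts rest on the other 5 genes. For *Prom1* every WT male was below every WT female. The call is lost with the animals' number series as a covariate (difference -1.11, limma adjusted p = 0.0575), without WT male 2 (-1.27, limma adjusted p = 0.0602), without WT female 1 (-1.30, limma adjusted p = 0.0544) or without WT female 3 (-0.94, limma adjusted p = 0.0689), so that in 2 of these fits the difference was larger and the call alone was lost. The difference was -2.51 (limma adjusted p = 0.00282) with a pseudocount of 0.1 and -1.505 (limma adjusted p = 0.0123) without the 20 most abundant genes. *Ly6d* had a difference of -0.97 ± 0.326 (SE, limma adjusted p = 0.0976) and *Spats2l* one of -0.46 ± 0.194 (SE, limma adjusted p = 0.160).

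In KO, 0 of the 8 differed between the sexes by limma after adjustment, and 1, *Mybl1*, had an unadjusted limma p under 0.05. Of all tested genes 0.0814% passed after adjustment and 5.33% before it. *Mybl1* was 15.5 ± 10.7 TPM in males and 6.35 ± 1.53 TPM in females (SD, n = 3 each), a difference of 1.00 ± 0.338 (SE, limma adjusted p = 0.841), and the sexes overlapped. Without KO male 3 the *Mybl1* difference was 0.51. *Spp1* was 583 ± 43.6 TPM in KO males and 401 ± 261 TPM in KO females (SD, n = 3 each), a difference of 0.72 ± 0.336 (SE, limma adjusted p = 0.859).

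The genotype effect was also compared between the sexes. For 0 of the 8 did the interaction pass after adjustment by limma, beside 0.912% of all tested genes. Before adjustment 2 had a limma p under 0.05, *Spp1* and *Mybl1*, beside 8.85% of all. *Sprr1a*, *Inava* and *Mybl1* were near 0 in WT, so their interaction rests mostly on the KO livers. The *Spp1* rise was 4.45 in males and 3.08 in females, an interaction of 1.37 ± 0.475 (SE, limma adjusted p = 0.386). Without KO female 1, the female with 702 TPM, the interaction of *Spp1* was 1.86 (limma adjusted p = 0.00764), so that 1 library decides this call. The *Mybl1* rise was 3.76 in males and 2.57 in females, an interaction of 1.19 ± 0.477 (SE, limma adjusted p = 0.482). Without KO male 3, the male with 27.7 TPM, the interaction of *Mybl1* was 0.69.

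**Figure D4:**
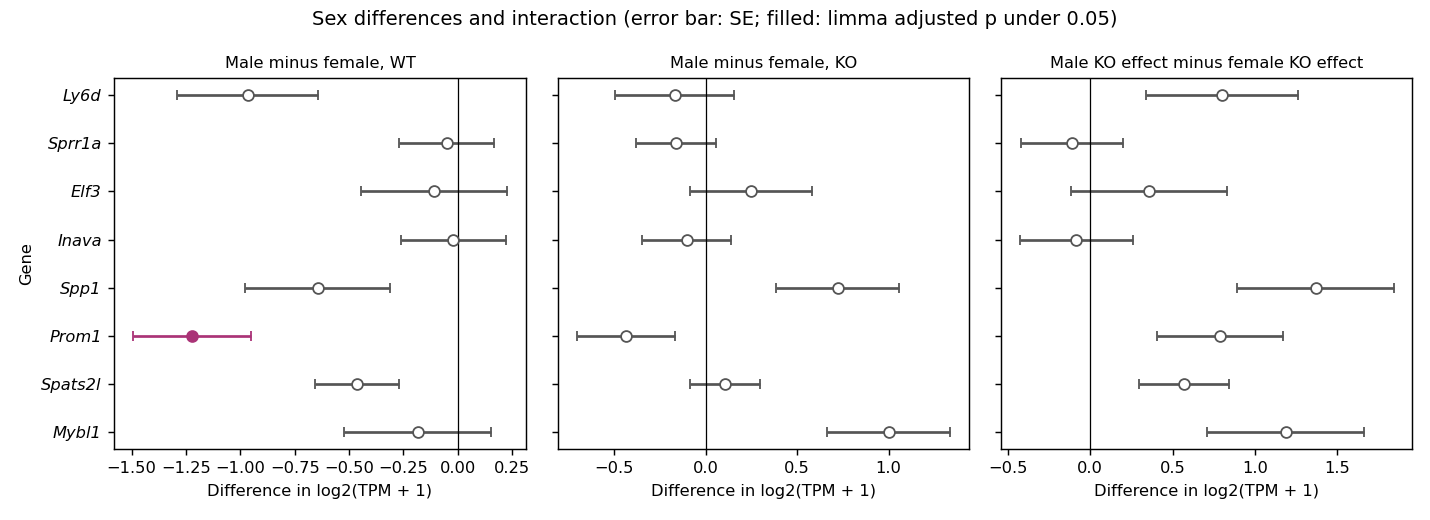
Difference in log2(TPM + 1) (horizontal axis) between males and females in WT (left) and KO (middle), and between the KO effect in males and in females (right), for the 8 genes (vertical axis). Points are limma estimates, error bars are SE, and the 1 filled point is *Prom1* in WT at -1.22.

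Relatives and partners of the 8 genes were read from the same fit over all genes. Each list's counts stand beside 50.1% higher and 4.82% lower among all tested genes, and after rescaling beside 20.9% and 18.7%. A list gene with a WT mean under 0.5 TPM was tested only through its high KO values, so that a rise was nearly fixed for it; the number of such genes is given with each list that has any among its higher genes. In the Ly6 family 8 of 20 genes were tested, 5 were higher in KO and 0 lower, and after rescaling 5 were higher and 1 lower; the first share is close to that of all genes. Of the 5 higher, 3 (*Ly6c1*, *Ly6k* and *Lynx1*) had a WT mean under the filter. *Ly6e*, a GPI-anchored surface protein of many cell types, rose from 180 ± 55.9 to 1179 ± 79.8 TPM (SD, n = 6 each; difference 2.76 ± 0.135 SE, limma adjusted p = 3.96e-09). *Lynx1*, a modulator of nicotinic receptors, was 0.430 TPM in WT and 2.43 TPM in KO. *Ly6c2*, a monocyte surface gene, rose by 1.07 (limma adjusted p = 0.00428). The median difference of the 5 genes with a WT mean at or above the filter was 0.61, beside 0.35 for all tested genes.

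In the cornified envelope list, the setting in which SPRR1A is known, 11 of 22 genes were at 0 in all 12 livers and 5 were tested, of which 4 were higher and 0 lower, also after rescaling with the same genes tested. Of these 4, *Sprr2a2*, *Sprr2b* and *Evpl* had a WT mean under the filter, and 1 of the other 2 tested was higher. *Ppl*, encoding the desmosomal plakin periplakin, rose from 4.28 ± 1.35 to 30.2 ± 7.58 TPM (SD, n = 6 each; difference 2.56 ± 0.200 SE, limma adjusted p = 3.37e-07). *Evpl*, its partner envoplakin, was 0.259 TPM in WT and 1.49 TPM in KO. *Sprr2b* was listed at 0 in all 6 WT livers and at 0.794 to 7.33 TPM in KO. The closest paralog, *Sprr1b*, did not reach the filter and was at most 0.250 TPM in KO, and *Tgm1*, the cross-linking transglutaminase, had a difference of 0.61 (limma adjusted p = 0.102).

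Among ETS factors related to ELF3, 8 of 11 tested were higher and 0 lower, but after rescaling 3 were higher and 1 lower, a share near the 20.9% of all genes. The largest were *Ets2* (11.6 ± 2.55 to 49.0 ± 13.7 TPM, SD, n = 6 each; difference 1.97, limma adjusted p = 1.34e-06), *Spi1*, the PU.1 factor of myeloid cells (difference 1.79, limma adjusted p = 1.22e-05), and *Elf4* (difference 0.83, limma adjusted p = 0.000849). The epithelial relatives *Elf5* and *Ehf* did not reach the filter and were at most 0.0381 and 0.640 TPM in any KO liver. *Spdef*, another epithelial ETS factor under the filter, was at most 0.0981 TPM in WT and 0.418 to 1.36 TPM in KO, with no overlap; it is named here after its values were seen. *Spi1* moved beside the macrophage markers given above, and their part in it was not tested.

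Of 10 tested partners of INAVA, 7 were higher and 0 lower (50.1% of all genes higher), and after rescaling 5 were higher and 1 lower (20.9% and 18.7% of all). *Cyth4*, a cytohesin of blood cells, rose by 1.63 (limma adjusted p = 5.93e-05), *Sqstm1*, the autophagy receptor p62, by 1.29 (limma adjusted p = 8.95e-07), and *Cyth3* by 0.97 (limma adjusted p = 5.53e-05). Of 11 tested osteopontin receptors and proteases, 8 were higher and 0 lower (50.1% of all genes higher), and after rescaling 7 and 0 (20.9% and 18.7% of all). *Cd44*, a receptor for osteopontin, rose from 1.80 ± 0.539 to 8.64 ± 2.02 TPM (SD, n = 6 each; difference 1.78, limma adjusted p = 1.98e-06). The integrin genes *Itga8* and *Itgb5* rose by 1.71 and 1.23 (limma adjusted p = 1.43e-05 and 9.13e-06).

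Among surface genes of ductal progenitors listed with *Prom1*, 3 of 7 tested were higher and 1, *Epcam*, was lower (difference -0.35, limma adjusted p = 0.0312), and after rescaling 3 were higher and 2 lower. The share higher is below the 50.1% of all genes as deposited and above the 20.9% after rescaling. *St14* had a WT mean under the filter, and 2 of the other 6 tested were higher. The *Epcam* call is lost in 8 of 12 fits that each leave out 1 library (WT males 1 and 2, WT females 2 and 3, KO males 1 and 3, KO females 1 and 3), with limma adjusted p between 0.0201 and 0.0762 over the 12. *St14*, the membrane protease matriptase, was 0.353 ± 0.169 TPM in WT and 6.53 ± 2.57 TPM in KO (SD, n = 6 each). The duct factor *Sox9* rose by 1.57 (limma adjusted p = 0.000158). The paralog *Prom2* did not reach the filter and was at most 0.0181 TPM in KO. In the list of MYB family and MuvB complex genes, 5 of 10 tested were higher and 0 lower, which is close to the 50.1% of all genes, and after rescaling 2 were higher and 3 lower. *Foxm1*, a mitotic factor and the 1 gene of the list with a WT mean under the filter, was 0.308 TPM in WT and 1.62 TPM in KO. *Rbl1* rose by 0.94 (limma adjusted p = 0.00199). *E2f4* rose by 0.49 (limma adjusted p = 0.0181), but after rescaling the difference was 0.05 (limma adjusted p = 0.779). The other MYB genes did not reach the filter, with *Myb* at 0 in every KO liver and *Mybl2* at most 0.485 TPM there.

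Of 17 tested genes of injured and regenerating epithelium, 16 were higher and 0 lower, and after rescaling 11 were higher and 1 lower. Of the 16, *Cldn4*, *Cldn7*, *Areg*, *Hbegf* and *Plaur* had a WT mean under the filter, and of the other 12 tested 11 were higher. This list was put together with earlier results of these data known. *Anxa2*, a calcium-dependent membrane-binding protein, rose from 10.7 ± 2.44 to 159 ± 21.8 TPM (SD, n = 6 each; difference 3.78, limma adjusted p = 5.58e-10). *Cldn7*, a tight junction claudin, was 0.248 ± 0.137 TPM in WT and 11.3 ± 2.57 TPM in KO (SD, n = 6 each). *Tnfrsf12a*, the TWEAK receptor, rose by 3.07 (limma adjusted p = 2.51e-08). The exception was *F3*, tissue factor, with a difference of -0.39 (limma adjusted p = 0.197).

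**Figure D5:**
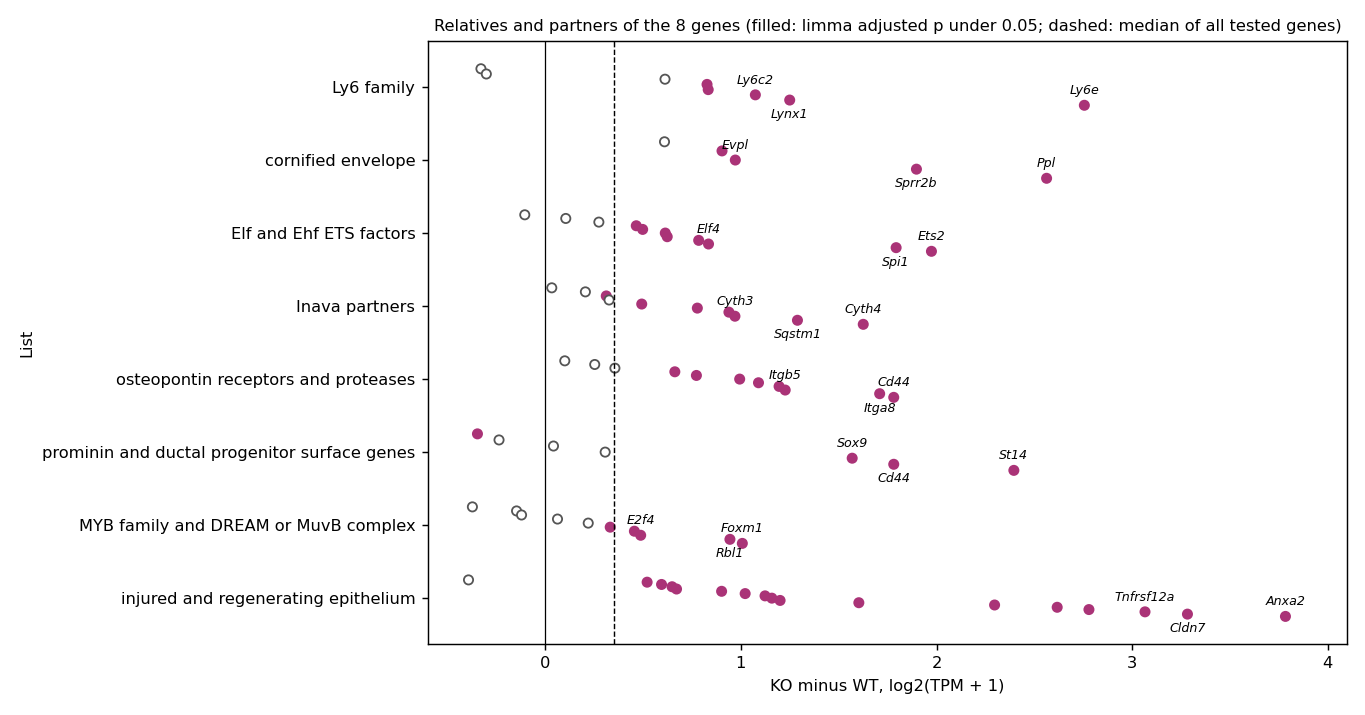
KO minus WT difference in log2(TPM + 1) (horizontal axis) for the tested genes of 8 lists of relatives and partners (vertical axis). Each point is 1 gene, filled where the limma adjusted p is under 0.05, and the dashed line is the median of all tested genes at 0.35; the injured epithelium list reaches furthest right, with *Anxa2* at 3.78.

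Genes whose levels tracked each of the 8 most closely were named by a rule: the 2 tested genes with the highest Pearson r after the mean of each of the 4 groups had been removed, over 12 livers. These are descriptions picked as the largest of 12278 values. For *Inava*, *Mybl1* and *Sprr1a*, at or near 0 in WT, 99.7%, 97.8% and 96.0% of the summed squares came from the 6 KO livers, so their r describes those; in WT *Inava* had r = -0.51 with *Armh3*, and *Sprr1a* r = -0.23 with *Ifi209*. They were *Crym* (r = 0.93) and *Sgf29* (0.90) for *Ly6d*, and *Zmym4* (0.97) and *Ifi209* (0.96) for *Sprr1a*. For *Elf3* they were *Ikzf1* (0.96) and *Sh3pxd2b* (0.94), and for *Inava* *Armh3* (0.98) and *Ints9* (0.94). For *Spp1* they were *Rfesd* (0.94) and *Ncaph* (0.94), and for *Prom1* *BC004004* (0.95) and *Syne1* (0.95). For *Spats2l* they were *St7* (0.92) and *Uhrf1bp1l* (0.90), and for *Mybl1* *Magee1* (0.97) is given. No gene was named for more than 1 of the 8, and among the 8 themselves the highest such r was 0.72, for *Sprr1a* with *Mybl1*, and it too rests on the KO livers.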

How the data were processed

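Whole liver of 12 mice was sequenced, 1 library each. The authors deposited 1 table of 25676 genes with TPM for each library, per the file headers, and their own fold change, log2 fold change and FDR p-value for KO against WT. The deposited fold change is a signed score, negative where WT is higher, per the file headers. The submitters' processing notes name edgeR and GRCm38; aligner, counter, annotation and use of strand are not given in the sources used here. All 12 columns matched 1 sample each.

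TPM were analysed as log2(TPM + 1) with limma 3.58.1 in R 4.3.3 (empirical Bayes with trend) on 12278 genes with a mean of at least 0.5 TPM. The genotype fit had sex as covariate; the other contrasts came from 1 model of 4 group means. P-values are two-sided, Benjamini-Hochberg over all tested genes, threshold 0.05. TPM keep no depth, so no counting error is given. That the mice are separate animals is read from their labels. The fits were tested on simulated data.

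Correlations over 6 livers used exact permutation of all 720 pairings, whose smallest possible p is 0.00139. Gene positions are from GENCODE M21 (GRCm38), promoters from RefSeq.

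The 8 genes and all lists were chosen with earlier results of these data known. Named genes are the 8, *Yap1*, up to 3 genes past the threshold per list with the largest differences, and the 2 genes most alike to each of the 8 (some named by these rules, and 1 motif, are not reported here); other list genes are named to say that they did not pass, and *Igll1*, *Krt5* and similar markers as defining markers. Correlations of the 8 with 12 summed marker lists in KO used log2(sum + 1). Alternatives were rescaling, leaving out the 20 most abundant genes, a pseudocount of 0.1, no filter, the animals' number series as covariate (early numbers: WT female 3 and KO female 1), a linear scale for correlations, and each library left out.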

Additional observations from a re-analysis of the deposited data

Results flagged for a closer look

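Each of the 8 genes was checked within the 6 WT and the 6 KO livers for a single liver far from the rest, in 16 groups on both the TPM and the log2(TPM + 1) scale; chance alone marks about 1 group in 20. The measure is the gap to the nearest liver as a share of the whole range, set against Dixon's critical value for 6 samples. *Ly6d* in WT female 1, at 8.47 TPM, had a gap of 0.648 on the TPM scale and did not pass on the log2 scale. *Inava* in WT female 3, at 0.0443 TPM, had a gap of 1 on both scales, because the other 5 WT livers are listed at 0. *Mybl1* in KO male 3, at 27.7 TPM, had a gap of 0.705 on the TPM scale and did not pass on the log2 scale. For 0 of the 8 did the genotype effect pass the limma test of a difference between the sexes with all libraries in.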

How the results depend on the processing

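Of 1020 alternative values, 938 kept their direction and call or, for counts and untested values, stayed near the value with all libraries and the settings used. The tally includes the KO minus WT differences of the 8 genes, whose direction was fixed by how they were chosen. It also includes sex differences within a genotype refitted without a liver of the other genotype, which leaves the estimate unchanged. The 938 is therefore no measure of how stable the results are. No paired analysis was possible because replicate numbers follow the order of deposition and carry no pairing. Without single libraries, the genes called between the sexes in WT ranged from 290 (without WT male 2) to 1696 (without WT male 3), against 705 with all, in KO from 6 to 10 against 10, and for the interaction from 75 to 176 against 112; the 8 genes called ranged from 0 to 1 in WT and from 0 to 1 for the interaction. With the number series as covariate 409 genes and 0 of the 8 were called in WT. The cause was not tested.

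After rescaling, 3 ETS and 2 MYB list genes were higher, and 9 list genes in all were lower: 1 each in the Ly6, ETS, INAVA partner and injured epithelium lists, 2 in the ductal list and 3 in the MYB list. Rescaling was first run with the filter reapplied to the rescaled TPM (4812 of 12226 genes called) and then with the genes held fixed (4861 of 12278), a change made after the values had been seen. With the filter reapplied those counts were the same, the injured epithelium list had 10 higher, not 11, and the cornified envelope list 3, not 4. Without single libraries the lower list genes ranged from 0 to 2 in all, and from 0 to 1 in each of the Ly6, ductal, MYB and injured epithelium lists.

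With a pseudocount of 0.1 the KO minus WT difference grew to 8.95 for *Sprr1a*, 6.20 for *Elf3*, 5.52 for *Inava*, 4.15 for *Prom1*, 3.05 for *Spats2l* and 5.33 for *Mybl1*, since a smaller added value shrinks low levels less.

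Signs turned 20 times, each for a value that passed no test or had none. They were the median r in WT with the mean of each sex removed (given below), *Sprr1a* between the sexes in WT with the number series (0.047), *Sprr1a* and *Inava* in the interaction with a pseudocount of 0.1 (0.19 and 0.045), and, against *Yap1*, r of *Ly6d* with that pseudocount (-0.013), of *Elf3* rescaled (-0.056) or on a linear scale (-0.012) and of *Spats2l* rescaled (-0.036). Without single libraries the difference between the sexes ran from -0.23 to 0.098 for *Elf3* in WT, and in KO from -0.38 to 0.020 for *Sprr1a*, from -0.15 to 0.54 for *Elf3*, from -0.39 to 0.10 for *Inava* and from -0.064 to 0.28 for *Spats2l*. The interaction ran from -0.33 to 0.070 for *Sprr1a*, from -0.035 to 0.65 for *Elf3* and from -0.37 to 0.13 for *Inava*.

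Under other scales the median r of the 28 pairs ran from 0.09 (rescaled) to 0.27 in KO and from 0.32 to 0.51 in WT, with 0 pairs past the adjusted exact permutation test under each. With the mean of each sex removed, chosen after seeing the data and not tested, it was 0.43 in KO and -0.12 in WT. The depth of the libraries is unknown, so counting error behind the low WT levels cannot be given.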
